A study of Arabidopsis thaliana with 12 samples.

Results

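Seedlings of Arabidopsis that overexpressed the poplar kinase gene *PtSnRK2.7* were compared with the wild-type without salt, to ask which transcripts the transgene moved under normal growth. The comparison took 6 of the 12 arrays of the series, chosen by their labels: 3 from the mock-treated overexpressor (genotype 35S:PtSnRK2.7:NOS) and 3 from the mock-treated wild-type, both in the Columbia strain. Mock-treated seedlings were moved at 7 days of age to fresh diluted Murashige and Skoog medium without NaCl, and whole seedlings were taken 2 days later, at 9 days. The other 6 arrays held the same genotypes after 2 days on 200 mM NaCl, and they enter only where the mock differences are set beside the salt-treated seedlings. By the study's methods the arrays were independent biological replicates. All overexpressor arrays came from a single transgenic line in the second generation after transformation, which can still segregate, with the transgene behind the *35S* promoter, which is active in most plant tissues. No seedlings with the empty vector were on these arrays, so an effect of the transgene and an effect of its insertion, of selection or of the line cannot be told apart. Several sample titles spell the gene PrSnRK2.7, whereas the genotype field has PtSnRK2.7.

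SnRK2 proteins are plant protein kinases that are switched on by osmotic stress and, for some members, by the hormone abscisic acid (ABA). Active SnRK2 kinases phosphorylate transcription factors, ion channels and enzymes, and they are best known for driving the dehydration response and stomatal closure. They belong to the same superfamily as SnRK1, the energy-sensing kinase of plants, which switches on catabolic genes when sugar is short. The transgene was not measured on the arrays, because no probe set was paired with the poplar gene. The oligonucleotides with which the study amplified it are shown here because they define the tested genotype. Capitals mark the start codon in the forward primer and the reverse complement of the stop codon in the reverse primer.

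PtSnRK2.7-forward: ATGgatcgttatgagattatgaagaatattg

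PtSnRK2.7-reverse: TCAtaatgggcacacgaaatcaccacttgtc

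Each value below is a MAS5 signal, the authors' summary of the probe intensities of a probe set on a linear scale, scaled so that every array had a trimmed mean close to 500. The median signal lay between 185.1 and 194.7 on the overexpressor arrays and between 185 and 187.2 on the wild-type arrays. The 20th percentile, under which signals are near background, was 20.9 to 26.1 on the overexpressor arrays and 24 to 25 on the wild-type arrays. Replicates differed by an SD of 0.20 on the log2 scale in both groups, as the median over probe sets, and the arrays correlated at 0.98 to 0.99 within a group and at 0.96 to 0.98 between the groups. The labelled tissue was whole seedlings. *RCA*, the activase of the carbon-fixing enzyme Rubisco and a green-tissue gene, had signals of 29240.5, 20335 and 18297 in the overexpressor and 20082, 22906 and 22693 in the wild-type. *CASP1*, a gene of the root endodermis, had 1056, 1613 and 1167 in the overexpressor and 881, 947 and 951 in the wild-type. Of 3 root, 2 leaf and 3 stomatal lineage markers paired with a probe set, 0 passed an adjusted p under 0.05, and no probe set was paired with the seed and flower markers.

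The log2 signals of 22746 probe sets were compared with limma on the 6 mock arrays, and every adjusted p in the text is a two-sided limma value adjusted by Benjamini-Hochberg over all of them. A probe set was called when its adjusted p was below 0.05 and the groups differed by more than 2-fold. More probe sets were lower than higher in the overexpressor. 27 were called higher (0.119% of those tested) and 86 were called lower (0.378%), and the 3 overexpressor arrays did not overlap the 3 wild-type arrays for any of these 113. Over all probe sets the overexpressor lay above every wild-type array in 10.5% and below every one in 9.72%. The lower calls were also larger, with a median log2 difference of -1.63 and 20 beyond 4-fold, against a median of 1.14 and 4 beyond 4-fold among the higher ones. The median over all probe sets was 0.01. Without the fold limit, 146 were higher (0.642%) and 219 lower (0.963%), 365 in all (1.6%), and the words higher and lower are used of list members at this limit. The calls rested on the pooling of variance along the intensity trend: without the trend limma called 2 higher and 3 lower, and the methods' t-test called 0 after adjustment. A fit over all 12 arrays called 14 higher and 67 lower, and 76 of the 113 were among them. The count of higher calls was 9 without overexpressor mock replicate 3, 12 without wild-type mock replicate 2, 18 without overexpressor mock replicate 2 and 42 without overexpressor mock replicate 1; the count of lower calls was 55 without overexpressor mock replicate 3.

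**Figure D1:**
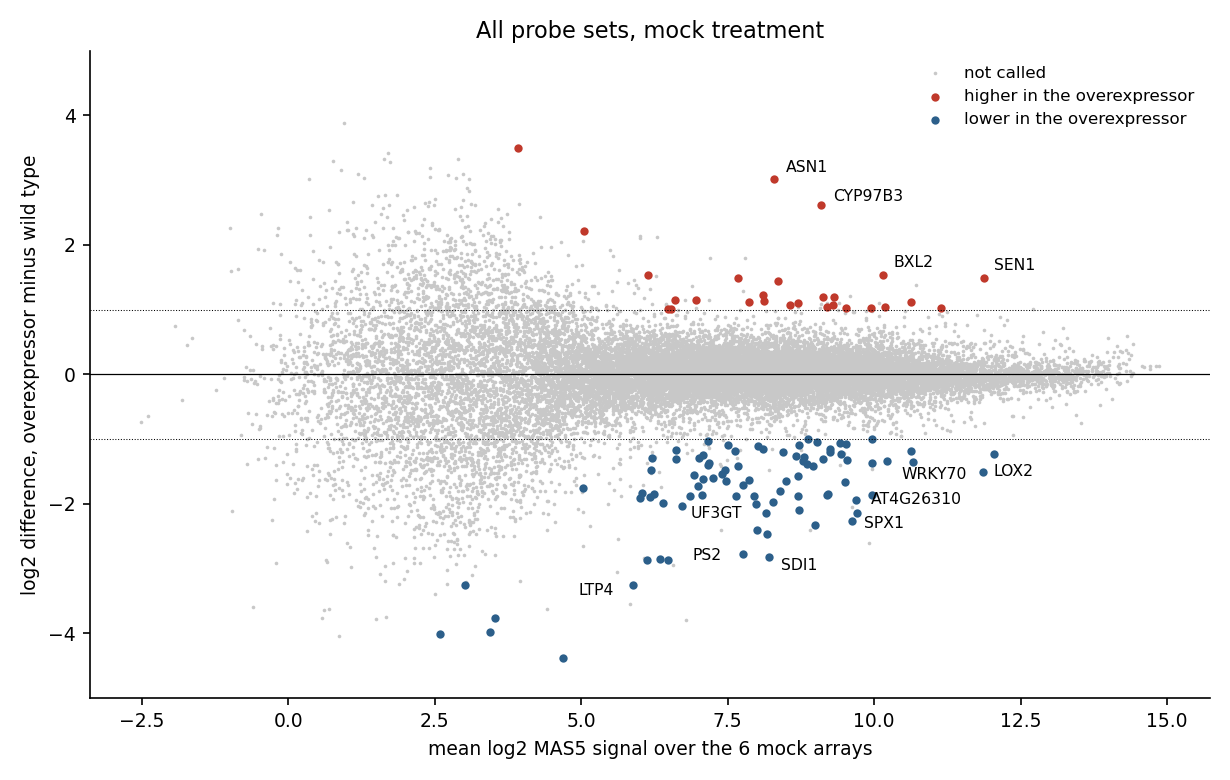
Log2 difference between overexpressor and wild-type under mock treatment (vertical axis) against the mean log2 MAS5 signal over the 6 mock arrays (horizontal axis), 1 point for each of 22746 probe sets. The 27 probe sets called higher are red, the 86 called lower are blue, and the dotted lines mark a 2-fold difference; the calls reach further down than up, and the spread of uncalled points widens at low signals.

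Of the 113 called probe sets, 97 were paired with a single gene, 51 through the platform annotation and 46 only through the paper's gene tables, whose genes were selected on these same arrays. Their direction is therefore not independent evidence, and among the measured members of a list the table-paired ones favor genes that changed. Of probe sets paired through the annotation, 0.533% were higher and 0.725% lower, and of those paired through the tables, 3.72% were higher and 8.6% lower. The gene lists, on pathways of nutrition, stress, hormones and growth, held 593 distinct genes, of which 228 were measured: 18 were higher, 43 were lower and 167 did not pass. The results follow the roles of the genes, beginning with genes whose difference was large in relation to its error.

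*CYP97B3*, a cytochrome P450 gene of the family that holds carotenoid hydroxylases, had signals of 1339, 1278 and 1424 in the overexpressor and 224, 215 and 221 in the wild-type. It was 6.12-fold higher in the overexpressor (log2 difference 2.61, SE 0.09, adjusted p = 2.1e-06). The gap between the groups was many times the spread within them. The other 4 measured carotenoid genes did not pass the test: the lycopene cyclase gene *LYC* had a log2 difference of -0.24 (adjusted p = 0.279), the hydroxylase gene *LUT1* -0.16 (adjusted p = 0.558), the cleavage dioxygenase gene *CCD4* -0.45 (adjusted p = 0.157) and the isomerase gene *Z-ISO* -0.04 (adjusted p = 0.925). *AT4G26310*, annotated with translational elongation, had 429, 431 and 404 in the overexpressor and 1407, 1577 and 1927 in the wild-type and was 3.86-fold lower (log2 difference -1.95, SE 0.12, adjusted p = 1.1e-04). *AT5G20790* had 245, 209 and 229 in the overexpressor and 1025, 1303 and 1102 in the wild-type (log2 difference -2.32, SE 0.12, adjusted p = 4.1e-05), and *AT1G23205*, annotated as an inhibitor of enzyme activity, had 137, 119 and 131 in the overexpressor and 460.2, 498 and 472 in the wild-type (log2 difference -1.89, SE 0.12, adjusted p = 1.2e-04). All 4 genes kept an adjusted p under 0.05 without each single array. *CYP97B3*, *AT5G20790* and *AT1G23205* were the only named genes past the test without the intensity trend.

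Most of the measured genes that plants switch on when phosphate is scarce were lower in the overexpressor. Of 29 listed genes 9 were measured, 8 of them through the tables, and 6 were lower, 0 higher and 3 did not pass, with a median log2 difference of -1.53 over the 9. The tables held genes selected on these arrays, so these counts do not speak for the listed genes left unpaired. *SPX1*, a phosphate sensor gene, had 369.9, 323 and 384 in the overexpressor and 1455, 2166 and 1643 in the wild-type (log2 difference -2.27, SE 0.14, adjusted p = 1.2e-04). *PS2*, a phosphatase gene induced by phosphate starvation, had 104, 61.0 and 89.2 in the overexpressor and 522, 557 and 627 in the wild-type (log2 difference -2.78, SE 0.20, adjusted p = 2.6e-04). The purple acid phosphatase gene *PAP17* had 267, 345 and 335 in the overexpressor and 1214, 1217 and 965 in the wild-type (log2 difference -1.84, SE 0.13, adjusted p = 2.6e-04). In all 3 genes the highest overexpressor array lay below the lowest wild-type array by more than a factor of 2. *SPX3*, a second *SPX* gene, *PEPC1*, which encodes a phosphatase acting on phosphoethanolamine, and *G3PP1*, a glycerol-3-phosphate permease gene, had log2 differences of -1.89 (adjusted p = 0.0073), -1.53 (adjusted p = 0.0061) and -1.23 (adjusted p = 0.0027). Those that did not pass were *WRKY75*, a transcription factor gene at 0.07, the root sensing gene *LPR1* at -0.05, the only member paired through the annotation, and the kinase gene *PPCK1* at -0.49. The 6 lower genes passed without each single array, with a highest adjusted p of 0.048 for *SPX3*.

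Under phosphate shortage plants also replace phospholipids of their membranes by galactolipids and sulfolipids, and all but a single measured gene of this exchange were lower too. Of 12 listed genes 5 were measured, all through the tables, and 4 were lower and 0 higher, with a median log2 difference of -1.49. Since the tables held only genes selected on these arrays, the share that was lower says little about the whole list. *MGD3*, a galactolipid synthase gene, had 85.3, 71.0 and 57.3 in the overexpressor and 207, 297 and 276 in the wild-type (log2 difference -1.87, SE 0.21, adjusted p = 0.0039). *SQD2*, which encodes the last step of sulfolipid synthesis, had 419, 519.7 and 483 in the overexpressor and 878, 1137 and 959.9 in the wild-type (log2 difference -1.06, SE 0.12, adjusted p = 0.0038). *GDPD1* and *PLDP2*, a phosphodiesterase gene and a phospholipase D gene that act in phospholipid breakdown, had log2 differences of -1.58 (adjusted p = 0.0061) and -1.49 (adjusted p = 0.017). The second galactolipid synthase gene, *MGD2*, had 64.7, 86.5 and 88.8 in the overexpressor and 142, 305 and 128 in the wild-type, groups that did not overlap, and did not pass (log2 difference -1.16, adjusted p = 0.115). *PLDP2* passed in 3 of the 6 fits without an array (highest adjusted p = 0.084), and the other 3 lower genes passed in all of them.

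Among genes that respond to a shortage of sulfur, the members that passed were lower in the overexpressor except for a single higher one. Of 25 listed genes 14 were measured, 9 through the tables, and 7 were lower, 1 was higher and 6 did not pass (median -1.13). *SDI1*, a gene named for its induction by sulfur deficiency, had 147, 98.9 and 93.0 in the overexpressor and 434, 1120.2 and 999.6 in the wild-type (log2 difference -2.83, SE 0.33, adjusted p = 0.0039). Its wild-type arrays were spread, with replicate 1 lowest, yet all of them lay above the overexpressor. *APR1*, a reductase gene of sulfate assimilation, had 1000.2, 1058 and 983 in the overexpressor and 1799, 1993 and 2089 in the wild-type (log2 difference -0.95, SE 0.09, adjusted p = 0.0015), a smaller but even difference. *LSU2* and *LSU1*, a pair of genes responsive to low sulfur, had log2 differences of -2.10 (adjusted p = 0.013) and -2.47 (adjusted p = 0.023). *BGLU28*, a β-glucosidase gene linked to glucosinolate breakdown, had a log2 difference of -1.89 (adjusted p = 0.015). *GGCT2;1*, which acts in glutathione degradation, had one of -1.64 (adjusted p = 0.022), and *AT1G04770* one of -1.32 (adjusted p = 0.01).

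The member that was higher was *APS4*, an ATP sulfurylase gene, with 1042, 1092 and 1094 in the overexpressor and 762, 695 and 772 in the wild-type (log2 difference 0.54, SE 0.08, adjusted p = 0.016). The sulfate exporter genes of the vacuole, *SULTR4;1* and *SULTR4;2*, had log2 differences of -0.15 and 0.02, and the sulfite reductase gene *SIR* had -0.06; none of these passed. *APR1*, *SDI1* and *AT1G04770* passed without each single array. *LSU2* passed in 5 of 6 such fits, *BGLU28* and *GGCT2;1* in 3 each, *APS4* in 2 and *LSU1* in 1, and the highest adjusted p in these fits was 0.093, for *LSU1*. Without overexpressor mock replicate 3 or wild-type mock replicate 2, 4 members were lower in place of 7, and the higher member was lost.

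**Figure D2:**
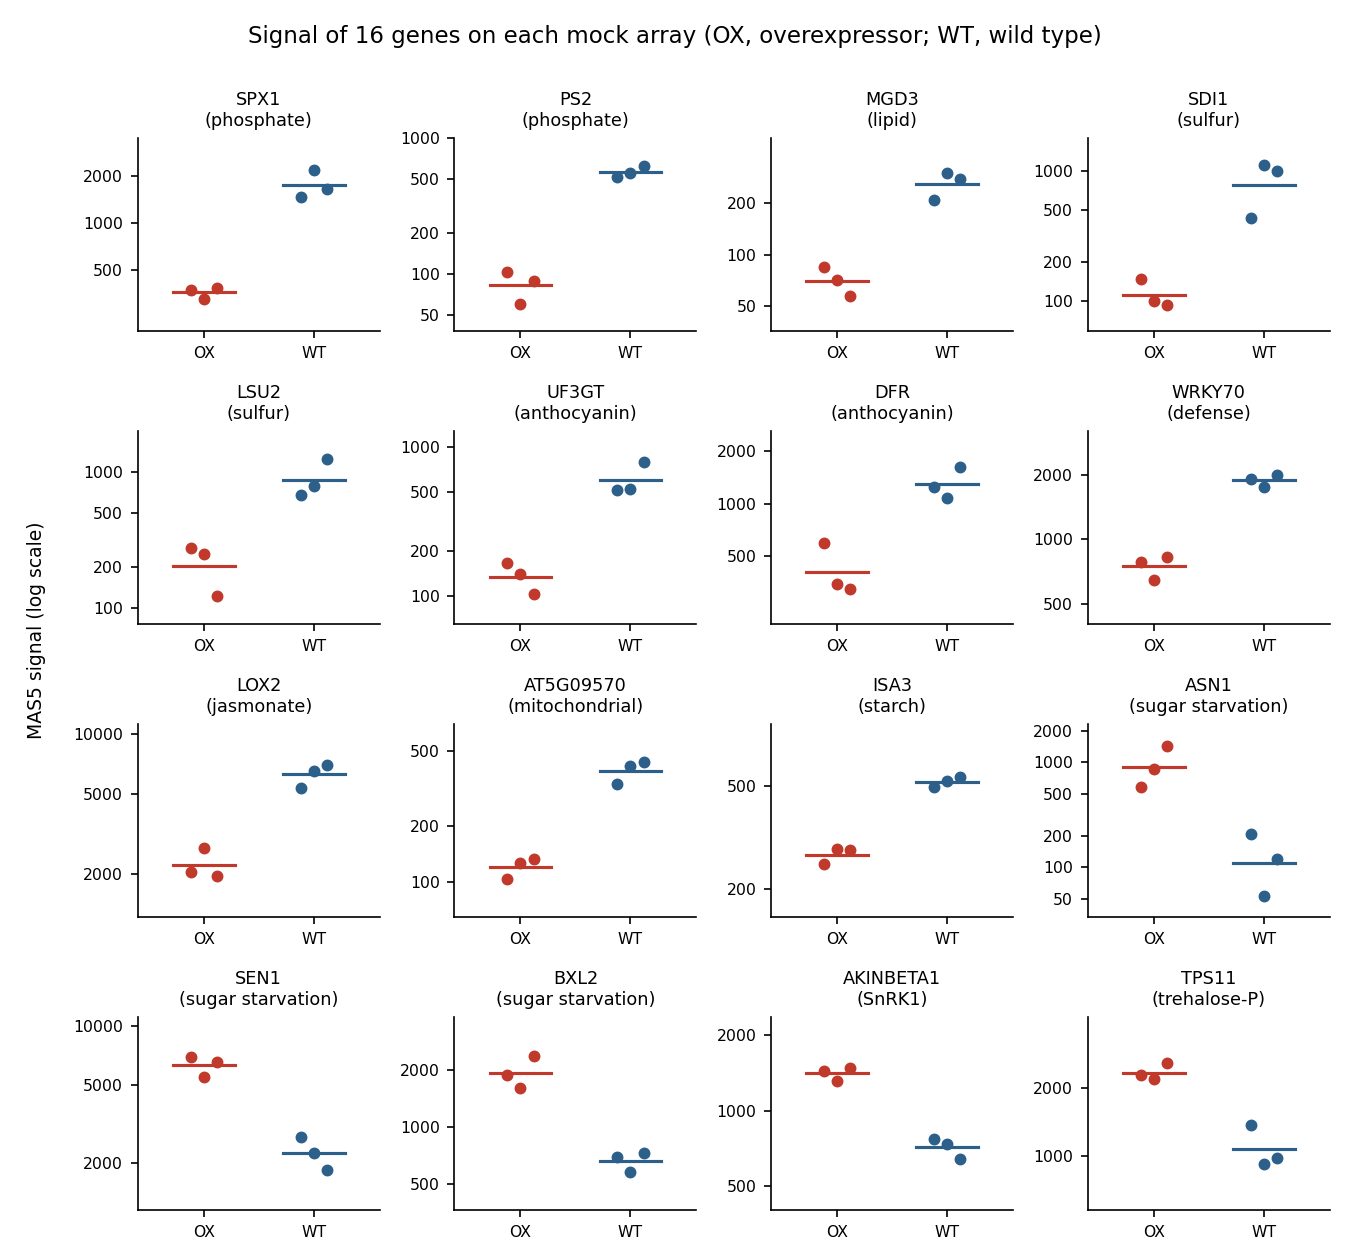
MAS5 signal (log scale) of 16 genes on each of the 3 overexpressor (OX, red) and 3 wild-type (WT, blue) mock arrays, with bars at the geometric mean of each group. In 11 genes the overexpressor arrays lie below all wild-type arrays, and in *ASN1*, *SEN1*, *BXL2*, *AKINBETA1* and *TPS11* they lie above; the groups overlap in none of the 16.

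Most of the measured enzyme genes of flavonoid and anthocyanin synthesis, the pigments that seedlings build under stress, were lower in the overexpressor, and this list had more lower members paired through the annotation than any other list. Of 25 listed genes 12 were measured, and 9 were lower, 0 were higher and 3 did not pass (median -0.77). Among the 8 paired through the annotation, 7 were lower (median -1.25), against the 0.725% of all such probe sets. The list was chosen with earlier results of these data known, so this count is a description and not a test of the pathway. *DFR*, the dihydroflavonol reductase gene at the entry to anthocyanins, had 600.1, 346 and 328 in the overexpressor and 1249, 1076 and 1628 in the wild-type (log2 difference -1.67, SE 0.23, adjusted p = 0.0095). Genes that decorate the pigment or carry it were among the others. *UF3GT*, a glycosyltransferase gene, had 166, 142 and 104 in the overexpressor and 514, 522 and 796 in the wild-type (log2 difference -2.15, SE 0.21, adjusted p = 0.002). *AT4G14090*, annotated with anthocyanin synthesis, had 155, 205 and 123 in the overexpressor and 463, 604 and 834 in the wild-type (log2 difference -1.97, SE 0.23, adjusted p = 0.0046). *GSTF12*, a glutathione transferase needed to carry anthocyanins to the vacuole, had 379.6, 275 and 280.0 in the overexpressor and 909, 1045 and 1484 in the wild-type (log2 difference -1.86, SE 0.19, adjusted p = 0.002).

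The malonyltransferase gene *AT5MAT* had a log2 difference of -1.85 (adjusted p = 0.015). Genes that also serve flavonols differed less: the flavonoid glycosyltransferase genes *UGT78D2* and *UGT78D1* by -0.72 (adjusted p = 0.0039) and -0.82 (adjusted p = 0.0053), and *CHIL*, a chalcone isomerase-like gene, by -0.67 (adjusted p = 0.017). *BGLU10*, which encodes a glucosyltransferase of anthocyanins, had a log2 difference of -0.62 (adjusted p = 0.04). The flavonol synthase gene *FLS1* had -0.48 and did not pass (adjusted p = 0.074), and *BAN*, a gene of seed coat tannins, had signals of 5.26, 11.6 and 4.32 in the overexpressor and 4.22, 2.43 and 8.18 in the wild-type, under the 20th percentile. Of the 16 listed regulators of this pathway 0 were paired with a probe set, so their levels are not known here. *AT5MAT* passed in 4, *CHIL* in 1 and *BGLU10* in 0 of the 6 fits without an array, and the other 6 lower genes passed in all of them.

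A list on the response to mitochondrial dysfunction and another on starch were added after the values were seen, so that their counts are descriptions only. The first held 16 nuclear genes that rise when mitochondria are disturbed. Of these 14 were measured, 8 were lower and 0 higher (median -0.99), and of the 7 paired through the annotation 5 were lower. *AT5G09570* had 103, 127 and 132 in the overexpressor and 336, 416 and 439 in the wild-type (log2 difference -1.72, SE 0.16, adjusted p = 0.0018). *AT2G21640*, annotated with the response to oxidative stress, had 193, 204 and 216 in the overexpressor and 657, 483 and 821 in the wild-type (log2 difference -1.65, SE 0.17, adjusted p = 0.0027), with the groups well apart. *AT2G41730* had a log2 difference of -1.89 (adjusted p = 0.0036) from a probe set of a kind that can bind other transcripts, and *AT5G51440* one of -2.03 (adjusted p = 0.013). *AOX1A*, the alternative oxidase gene and the standard marker of this response, had 829, 1067 and 835 in the overexpressor and 1609, 1309 and 2292 in the wild-type (log2 difference -0.90, SE 0.19, adjusted p = 0.048), close to the limit. Its regulator gene *ANAC013* did not pass (log2 difference -1.08, adjusted p = 0.058), nor did *OM66* (-0.29, adjusted p = 0.745), *NDB2* (-0.07, adjusted p = 0.859) or *CRF6* (-0.17, adjusted p = 0.81). The count was 5 without overexpressor mock replicate 2 or 3 and 4 without wild-type mock replicate 1.

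Of 12 measured genes of a list on detoxification and oxidative stress, 4 were lower and 0 higher. The tables paired 9 of the 12, and of the 3 paired through the annotation 1 was lower. *AT2G04050*, which also belongs to the mitochondrial list, had 26.8, 38.3 and 35.0 in the overexpressor and 276, 151 and 336 in the wild-type (log2 difference -2.87, SE 0.31, adjusted p = 0.0034), and its signal in the overexpressor was close to the 20th percentile of the arrays. Its neighbor *DTX1*, a gene of a multidrug efflux transporter whose probe set may share signal with it, had a log2 difference of -1.29 (adjusted p = 0.029). *UGT74E2*, which glycosylates an auxin, had a log2 difference of -1.10 (adjusted p = 0.022), and *AOX1A* was the fourth. The glutathione transferase genes *GSTU2*, *GSTU4*, *GSTU5*, *GSTU24* and *GSTU25* had log2 differences of -1.04 to 0.13, and none of the 5 passed. Only *AT2G04050* passed without each single array, and 1 member was lower without overexpressor mock replicate 2 or 3 or wild-type mock replicate 1 or 3.

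The second added list held genes of starch metabolism. Of 36 genes 11 were measured, 5 through the tables, and 6 were lower and 0 higher (median -0.78). *ISA3*, a debranching enzyme of starch breakdown, had 249, 285 and 282 in the overexpressor and 496, 520.3 and 541 in the wild-type (log2 difference -0.93, SE 0.10, adjusted p = 0.0036). *PWD*, which phosphorylates starch so that it can be degraded, had 838, 1168 and 976 in the overexpressor and 1629.8, 1767 and 1578 in the wild-type (log2 difference -0.75, SE 0.12, adjusted p = 0.019), and *SEX4*, the matching phosphatase gene, had a log2 difference of -0.78 (adjusted p = 0.047). *APL3*, which encodes a subunit of the enzyme that supplies starch synthesis, was also lower (-1.25, adjusted p = 0.046). It passed in 0 of the 6 fits without an array (highest adjusted p = 0.1315). *BAM6*, a β-amylase gene, had -1.17 (adjusted p = 0.036), and *QQS*, a gene that affects starch content, had -1.42 (adjusted p = 0.043). A chloroplast β-amylase gene, *BAM1*, and the branching enzyme gene *SBE2.2* had 0.05 and 0.17 and did not pass. The count of 6 was 1 without wild-type mock replicate 2 and 2 without any other single array, while *ISA3* passed in all 6 of these fits.

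Among the 11 measured genes of salicylic acid signaling and defense, 3 were lower and 0 higher (median -1.30). *WRKY70*, a transcription factor gene between salicylic acid and jasmonate signaling, had 783, 643 and 831 in the overexpressor and 1917, 1748 and 1997 in the wild-type (log2 difference -1.33, SE 0.11, adjusted p = 7.2e-04). Its close relative *WRKY54* had 80.7, 113 and 112 in the overexpressor and 320.2, 329 and 297 in the wild-type (log2 difference -1.65, SE 0.17, adjusted p = 0.0023). *PR2*, a defense glucanase gene, had 10.8, 30.7 and 52.3 in the overexpressor and 164, 183 and 228 in the wild-type (log2 difference -2.88, SE 0.50, adjusted p = 0.025), with overexpressor replicate 1 under the 20th percentile. On these mock arrays the salicylic acid synthesis gene *ICS1* did not pass (log2 difference 0.26, adjusted p = 0.619), nor did *EDS5*, its transporter gene (-0.45, adjusted p = 0.186). Outside the list, 3 further genes known from resistance to pathogens were among the called: *LURP1*, with 351, 644 and 641 in the overexpressor and 2211, 1804 and 1740.0 in the wild-type (log2 difference -1.86, SE 0.21, adjusted p = 0.0039), the ankyrin gene *ANK*, also called *BDA1* (log2 difference -1.60, SE 0.21, adjusted p = 0.0069), and *AT5G10760*, also called *AED1* (log2 difference -1.84, SE 0.36, adjusted p = 0.04). *AT5G10760* was singled out after its values were seen. *WRKY70*, *WRKY54*, *LURP1* and *ANK* passed without each single array, *PR2* in 2 of 6 such fits (highest adjusted p = 0.087) and *AT5G10760* in 1 (highest adjusted p = 0.138).

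In jasmonate synthesis, 3 enzyme genes were lower. *LOX2*, the chloroplast lipoxygenase gene, had 2027, 2694 and 1938 in the overexpressor and 5377, 6519 and 6967 in the wild-type (log2 difference -1.51, SE 0.14, adjusted p = 0.0018). *AOS*, which encodes allene oxide synthase, had 764, 825 and 830.2 in the overexpressor and 1290.2, 1063 and 1081 in the wild-type (log2 difference -0.50, SE 0.10, adjusted p = 0.039), and *OPR3*, which acts in the peroxisome, had 649, 631 and 696 in the overexpressor and 942, 1048 and 1020.4 in the wild-type (log2 difference -0.61, SE 0.09, adjusted p = 0.011). The other 17 of 20 measured jasmonate genes did not pass (median of the 20, -0.46). Among them were 7 *JAZ* repressor genes, which jasmonate induces, with log2 differences of -1.38 to 0.37, and the regulator gene *MYC2* at 0.16 (adjusted p = 0.844). *AOC3*, an allene oxide cyclase gene that acts between *AOS* and *OPR3*, did not pass either (log2 difference -0.30, adjusted p = 0.412). *LOX2* and *OPR3* passed without each single array, and *AOS* in 0 of the 6 fits (highest adjusted p = 0.134).

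**Figure D3:**
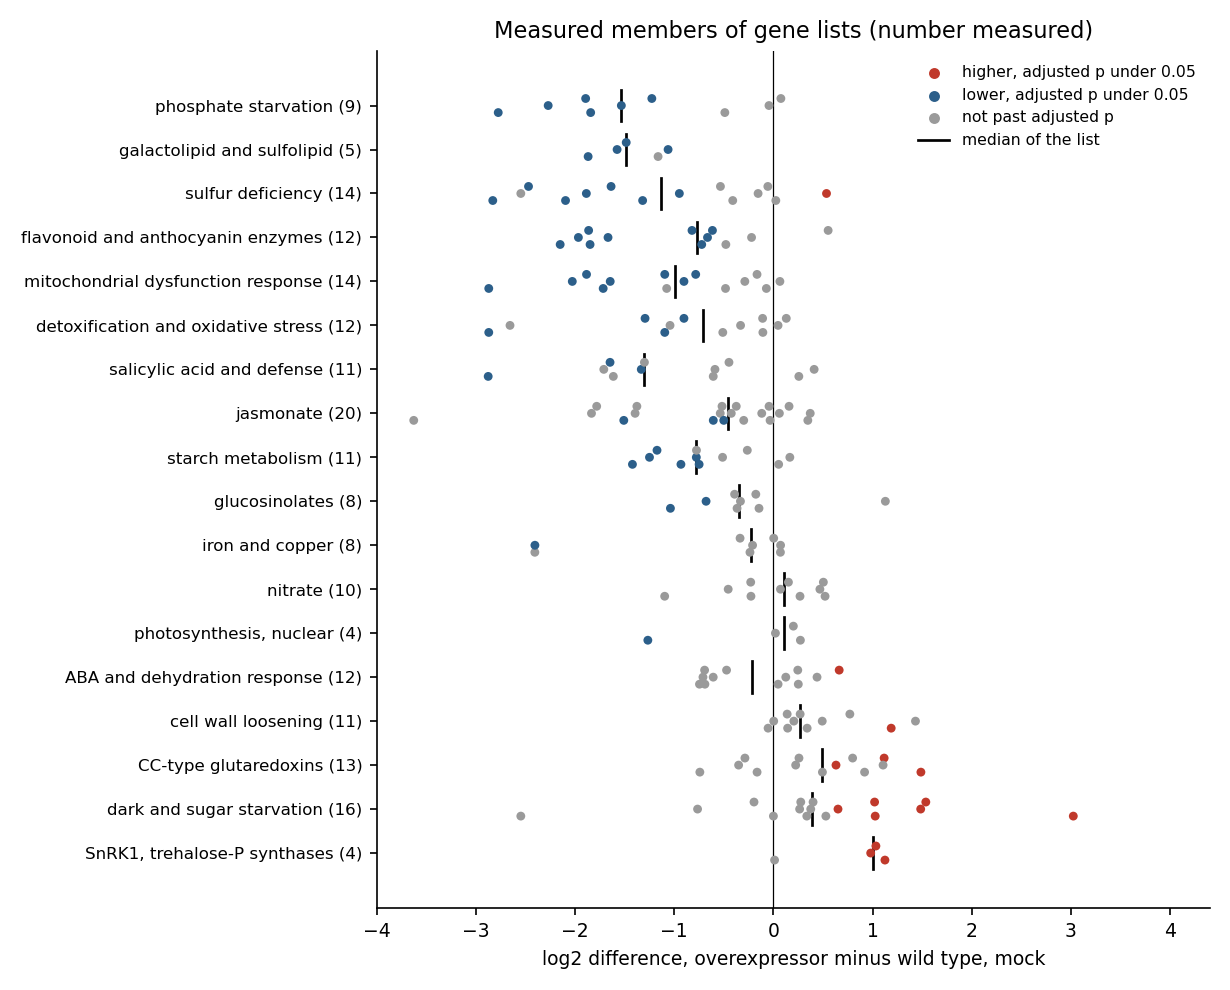
Log2 difference between overexpressor and wild-type under mock treatment of each measured member of 18 gene lists, with members higher at an adjusted p under 0.05 in red, members lower in blue, the others in gray, and a bar at the median of each list. The lists on starch metabolism and the mitochondrial dysfunction response were added after the values were seen; the blue points lie mostly in the upper 9 lists, from phosphate starvation to starch metabolism, and the red ones mostly in the glutaredoxin, sugar starvation and SnRK1 lists.

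Some of the genes that darkness and sugar depletion induce were higher in the overexpressor. Of 24 listed genes 16 were measured, 12 through the tables, and 6 were higher, 0 were lower and 10 did not pass, with a median of 0.39. *ASN1*, the asparagine synthetase gene of dark and starved tissue, had 576, 852 and 1439 in the overexpressor and 206, 53.3 and 119 in the wild-type (log2 difference 3.02, SE 0.45, adjusted p = 0.015). Both groups were spread, and the lowest overexpressor array was still above the highest wild-type array. *SEN1*, a senescence- and darkness-associated gene, had 6905, 5480.2 and 6543 in the overexpressor and 2722, 2256 and 1838 in the wild-type (log2 difference 1.48, SE 0.15, adjusted p = 0.002). *BXL2*, a β-xylosidase gene of the cell wall, had 1881, 1605 and 2393 in the overexpressor and 699, 582 and 727 in the wild-type (log2 difference 1.54, SE 0.14, adjusted p = 0.0018). In breakdown of the amino acid leucine, *MCCA*, a carboxylase subunit gene, and *IVD*, a dehydrogenase gene, had log2 differences of 1.02 (adjusted p = 0.0096) and 0.65 (adjusted p = 0.017). The second carboxylase subunit gene, *MCCB*, had 0.34 and did not pass (adjusted p = 0.103). *STP1*, a monosaccharide transporter gene, had 1.03 (adjusted p = 0.016).

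Not all genes of the starvation response moved. *DIN10*, among the strongest signals of the list, had 13597, 10308 and 11497 in the overexpressor and 9096, 10411 and 7415 in the wild-type (log2 difference 0.40, adjusted p = 0.259), and these groups overlapped. *BZIP63*, a transcription factor gene phosphorylated by SnRK1, had 0.28 (adjusted p = 0.36). *BGLU30*, also a gene of sulfur deficiency, had 10.4, 22.5 and 37.0 in the overexpressor and 177, 43.7 and 225 in the wild-type (-2.55, adjusted p = 0.092). *BXL2*, *SEN1* and *MCCA* passed without each single array, *ASN1* and *STP1* in 4 of 6 such fits each and *IVD* in 2, and 3 members were higher without overexpressor mock replicate 3.

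Of 13 listed genes of the SnRK1 complex and of trehalose phosphate synthases, whose product reports the sugar state, 4 were measured. The tables paired 2 of the 4, and 3 were higher (median 1.01). *AKINBETA1*, a regulatory subunit gene of SnRK1, had 1442, 1313 and 1477 in the overexpressor and 771, 734 and 643 in the wild-type (log2 difference 0.98, SE 0.10, adjusted p = 0.0019), just under a 2-fold difference. *TPS11* had 2271, 2174 and 2562 in the overexpressor and 1372, 917 and 971 in the wild-type (log2 difference 1.12, SE 0.14, adjusted p = 0.0068), and *TPS10* had 642, 919 and 985 in the overexpressor and 461, 327 and 451 in the wild-type (log2 difference 1.03, SE 0.18, adjusted p = 0.026). Both encode proteins of the regulatory class of this family. *AT4G16360*, a further SnRK1 β subunit gene, had 493, 632 and 546 in the overexpressor and 558, 520.0 and 572 in the wild-type (0.01, adjusted p = 0.98), with overlap. *AKINBETA1* and *TPS11* passed without each single array and *TPS10* in 2 of 6 (highest adjusted p = 0.126).

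Glutaredoxins of the CC type, small redox proteins of plants, were measured for 13 of 15 genes, 12 of them through the annotation, and 3 were higher and 0 lower (median 0.49). *AT5G18600* had 2303, 2459.8 and 2543 in the overexpressor and 1745, 1499 and 1484 in the wild-type (log2 difference 0.63, SE 0.09, adjusted p = 0.012). *AT4G15690* and *AT4G15700*, which neighbor each other in the genome and are close copies, so that their probe sets may share signal, had log2 differences of 1.49 (adjusted p = 0.031) and 1.12 (adjusted p = 0.036). Nearby members of the same cluster had 1.11 (*AT4G15680*, adjusted p = 0.098) and 0.92 (*AT4G15660*, adjusted p = 0.193). In the other direction, *GRX480*, a glutaredoxin gene of salicylic acid signaling, had -0.74 (adjusted p = 0.417). These 3 results depended on single arrays: 0 members were higher without overexpressor mock replicate 3 or wild-type mock replicate 2, and 1 without overexpressor mock replicate 1 or wild-type mock replicate 3.

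Members of other lists passed singly. In the circadian clock list, with 5 of 33 genes measured, *LNK2*, a coactivator gene, had 1627, 1549.6 and 1854 in the overexpressor and 722, 717 and 1052 in the wild-type (log2 difference 1.03, SE 0.15, adjusted p = 0.011), whereas *JMJD5*, a demethylase gene, had a log2 difference of -1.15 (adjusted p = 0.04) and the clock gene *GI* one of -0.06 (adjusted p = 0.927). In the iron and copper list, with 8 of 29 measured, *BHLH101*, an iron deficiency regulator gene, had 152, 120.1 and 76.4 in the overexpressor and 611, 1263 and 269.9 in the wild-type (log2 difference -2.41, SE 0.47, adjusted p = 0.04). Its wild-type arrays differed among themselves by more than 4-fold. The related gene *BHLH39* had 319, 320.1 and 89.8 in the overexpressor and 1233, 1984 and 558 in the wild-type, and did not pass (log2 difference -2.41, adjusted p = 0.06). In glucosinolate synthesis, 2 of 8 measured genes were lower, the oxygenase gene *FMOGSOX3* (log2 difference -1.04, SE 0.14, adjusted p = 0.011) and *AT2G31790* (log2 difference -0.68, SE 0.11, adjusted p = 0.019). The chaperone gene *HSP90.1* (log2 difference -0.84, SE 0.15, adjusted p = 0.029) and *ELIP1*, an early light-induced gene of the chloroplast (log2 difference -1.27, SE 0.24, adjusted p = 0.032), were lower. *GH3.5*, an auxin-conjugating enzyme gene (log2 difference 0.68, SE 0.11, adjusted p = 0.019), and *EXLA1*, an expansin-like gene (log2 difference 1.19, SE 0.21, adjusted p = 0.029), were higher. Each of these 9 genes, other than *GI* and *BHLH39*, did not pass in at least 1 fit without an array, *FMOGSOX3* in 1 of 6 and the others in 3 to 5.

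Among the remaining called genes, *SIS*, a serine-rich gene named for its induction by salt, was higher with 443, 457 and 370.1 in the overexpressor and 200.5, 159 and 183 in the wild-type (log2 difference 1.23, SE 0.14, adjusted p = 0.0036). *AT1G01240* had 572, 435 and 634 in the overexpressor and 226, 189 and 183 in the wild-type (log2 difference 1.45, SE 0.16, adjusted p = 0.003), and *AT5G12050*, annotated with circadian rhythm, had 1083, 1034 and 1021 in the overexpressor and 533, 492 and 511 in the wild-type (log2 difference 1.03, SE 0.08, adjusted p = 6.1e-04). *PMT6*, a polyol transporter gene, *WRI4*, a transcription factor gene of wax synthesis, *AT5G62280*, *AT5G26200* and *AT1G22890* were higher by 1.08 to 1.19 on the log2 scale. Among the lower genes, *TBL26*, of a family that acetylates cell wall polymers, had 92.9, 47.5 and 48.9 in the overexpressor and 218, 239 and 209.8 in the wild-type (log2 difference -1.89, SE 0.27, adjusted p = 0.011). *AT1G12030* had 40.6, 31.2 and 22.2 in the overexpressor and 207, 413 and 124 in the wild-type (log2 difference -2.85, SE 0.42, adjusted p = 0.013), with a wide spread in the wild-type, and *AT2G27420*, annotated with proteolysis, had a log2 difference of -1.61 (adjusted p = 0.0034). Among the largest differences were some from low signals: *LTP4*, a lipid transfer protein gene, had 28.8, 11.8 and 20.7 in the overexpressor and 61.3, 190.1 and 526 in the wild-type (log2 difference -3.25, SE 0.67, adjusted p = 0.049). In 9 of the 113 called probe sets, 2 higher and 7 lower, the mean of the dimmer group lay under the 20th percentile, so the size of these differences is uncertain.

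The response for which SnRK2 kinases are best known was largely not among these differences. Of 26 genes of the ABA and dehydration response 12 were measured, 1 was higher and 0 lower (median -0.21). *LTI30*, a dehydrin gene, was that gene, with 2101, 2376 and 2318 in the overexpressor and 1409, 1461 and 1417 in the wild-type (log2 difference 0.66, SE 0.08, adjusted p = 0.005), and it passed without each single array but not in the fit over all 12 arrays (adjusted p = 0.65). In that fit, 69 of the 117 named, listed or called genes past the test stayed there. *APR1*, *SQD2*, *PEPC1*, *SEN1* and *SIS*, which passed without each single array, were also lost in it. *RD29A*, the standard marker of the dehydration response, had 207, 345 and 225 in the overexpressor and 216, 227 and 298 in the wild-type, and the groups overlapped (log2 difference 0.05, SE 0.21, adjusted p = 0.949). *RAB18*, a second ABA marker, had 78.1, 73.3 and 70.3 in the overexpressor and 106, 125 and 128 in the wild-type, and *COR15B* had 139, 210.3 and 148 in the overexpressor and 229, 329 and 252 in the wild-type. In both, the overexpressor lay below the wild-type on every array, but neither passed (log2 differences -0.69 and -0.71, adjusted p = 0.135 and 0.121). Of genes for ABA synthesis and signaling, 3 of 25 were paired with a probe set and 0 passed. Of the 10 SnRK2 genes of Arabidopsis itself only *SNRK2.8* was paired, with 316, 389.6 and 372 in the overexpressor and 370.3, 599 and 423 in the wild-type (log2 difference -0.34, adjusted p = 0.396).

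Of the 6 genes that the study followed by quantitative RT-PCR, 4 were paired with a probe set here, and 0 passed under mock treatment. The study chose these genes from its array data, so the rest were unpaired here rather than absent from the arrays. *CWINV5*, a cell wall invertase gene, came closest, with 91.5, 92.3 and 62.1 in the overexpressor and 32.1, 28.9 and 28.8 in the wild-type (log2 difference 1.43, SE 0.30, adjusted p = 0.051), groups that did not overlap. *COR15A* had 96.9, 196 and 96.3 in the overexpressor and 106, 222 and 329 in the wild-type (-0.69, adjusted p = 0.479). *AT4G33550* and *AT4G18280* had log2 differences of -0.67 (adjusted p = 0.104) and -0.25 (adjusted p = 0.347). The primers for *CWINV5* are given because its level is the nearest to the limit among genes the study also measured by a second method.

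CWINV5-F: gaaaggagggtcggtaatggaggt

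CWINV5-R: taaacctgatgacgcattcctctg

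In 10 further lists with measured members, 0 members passed. These were the lists on nitrate (10 measured), rapid touch and stress responses (8), cytokinin (4), ethylene (4), brassinosteroid and gibberellin (3), chlorophyll synthesis (3), reference genes (3) and the root, stomatal lineage and leaf markers given above. The reference gene *UBC21* had 1622, 1483 and 1696 in the overexpressor and 1540.3, 1606 and 1521 in the wild-type (log2 difference 0.04, adjusted p = 0.881). In nitrate assimilation, the nitrate reductase gene *NIA1* had 0.52 (adjusted p = 0.121) and the ammonium transporter gene *AMT1;2* -0.46 (adjusted p = 0.065). A difference that did not pass is not shown to be absent.

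The salt arrays offer the same comparison of genotypes in other samples. There limma, fitted on the 6 salt arrays alone, found 2 probe sets higher (0.00879%) and 1 lower (0.0044%) at an adjusted p under 0.05, 0.0132% of those tested, *CYP97B3*, *AT1G15010* and *AT4G26310*, and 2806 at an unadjusted p under 0.05. Replicates of the salt-treated wild-type spread more, with a median SD of 0.36 on the log2 scale, against 0.21 in the salt-treated overexpressor. Of the 113 probe sets called under mock, 2 passed under salt, both in the same direction. *CYP97B3* had 851, 831 and 807 in the salt-treated overexpressor and 194, 195 and 249 in the salt-treated wild-type (log2 difference 1.97, SE 0.15, adjusted p = 0.012). *AT4G26310* had 514, 548 and 540.0 in the salt-treated overexpressor and 1927, 1940.0 and 2409 in the salt-treated wild-type (log2 difference -1.96, SE 0.13, adjusted p = 0.011). These 2 genes separated the genotypes on all 12 arrays. Taken within each treatment, 20 of the 113, 6 higher and 14 lower, had groups that did not overlap in the same direction under both. For 5 of the 113 the groups did not overlap in opposite directions. The share of such probe sets over all those tested was not counted.

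For most other calls the genotypes lay closer under salt. Of the 27 probe sets called higher under mock, 15 had the same sign under salt and the median log2 difference there was 0.07. Of the 86 called lower, 56 had the same sign and the median was -0.15. The difference was smaller in size under salt for 111 of the 113, which were chosen for large differences under mock, and the change between treatments was not tested. Of the 113, 8 were beyond 2-fold in the same direction under salt and 3 in the opposite one. None of the 6 lower defense genes passed under salt: *LURP1* had a log2 difference of -1.30 (adjusted p = 0.288), *ANK* -1.23 (adjusted p = 0.117), *WRKY54* -0.96 (adjusted p = 0.315), *WRKY70* -0.91 (adjusted p = 0.229), *AT5G10760* -0.50 (adjusted p = 0.726) and *PR2* -0.42 (adjusted p = 0.545). The median of the 11 measured genes of the salicylic acid and defense list was -0.67 under salt. *AT5G09570* had 790.1, 744 and 756 in the salt-treated overexpressor and 1545, 1497 and 1473 in the salt-treated wild-type and came nearest to the limit (log2 difference -0.98, adjusted p = 0.052).

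Among the nutrient, pigment and starvation genes, the salt differences did not pass and several were close to 0. *SPX1* had 2467, 2276 and 3087 in the salt-treated overexpressor and 2884, 3485 and 3165 in the salt-treated wild-type (log2 difference -0.29, adjusted p = 0.503), levels above those of both mock groups. *SDI1* had 4784, 4393 and 6664 in the salt-treated overexpressor and 8534, 2737 and 6824 in the salt-treated wild-type (-0.06, adjusted p = 0.967), and *UF3GT* had 1842, 1311 and 1541 in the salt-treated overexpressor and 1804, 1095 and 1381 in the salt-treated wild-type (0.15, adjusted p = 0.821). *SEN1*, in contrast, had 132, 143 and 145 in the salt-treated overexpressor and 123, 536 and 245 in the salt-treated wild-type (-0.85, adjusted p = 0.51), levels far below both mock groups. The median log2 difference of the phosphate list was -0.27 under salt, that of the sulfur list -0.04, that of the flavonoid list 0.12 and that of the sugar starvation list -0.21, against -0.025 over all probe sets tested. Without wild-type salt replicate 2, 3 probe sets called higher and 7 called lower under mock passed under salt in the same direction, and 2 passed in the opposite one. Without wild-type salt replicate 1, 1 and 4 passed in the same direction. Neither *CYP97B3* nor *AT4G26310* passed without an overexpressor salt array.

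**Figure D4:**
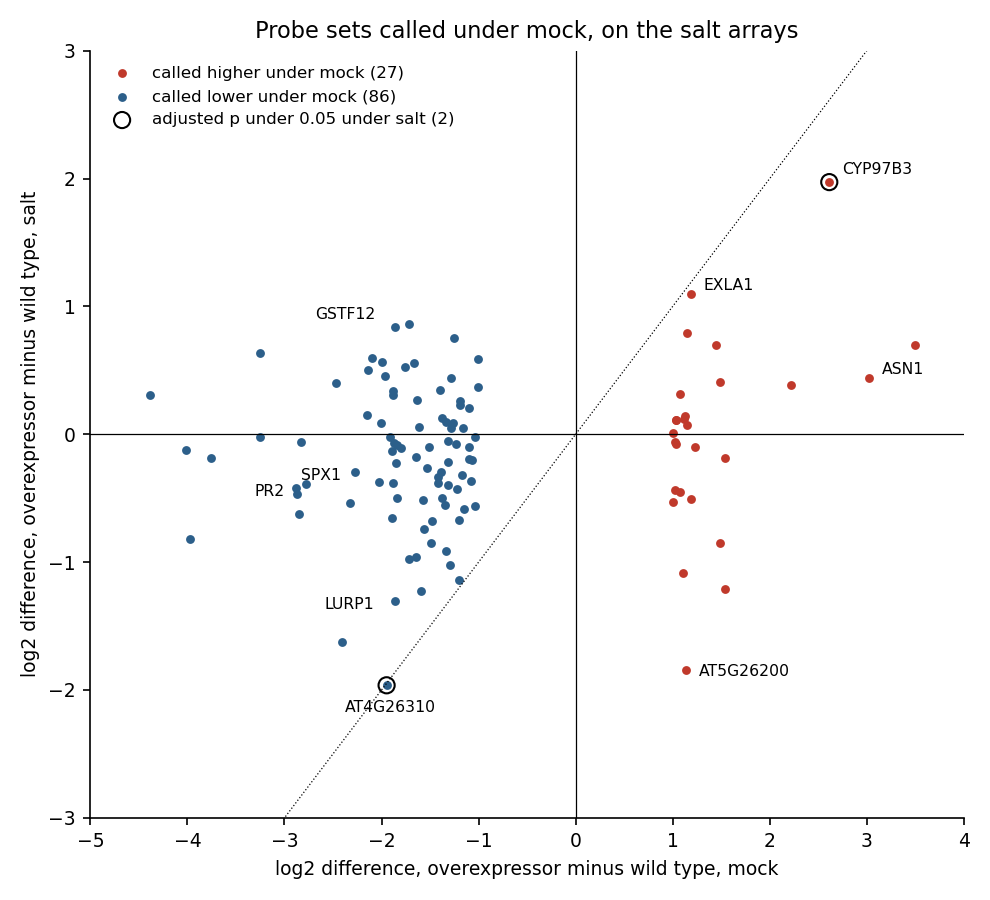
Log2 difference between overexpressor and wild-type on the 6 salt arrays (vertical axis) against that on the 6 mock arrays (horizontal axis) for the 113 probe sets called under mock, with the 27 called higher in red and the 86 called lower in blue. The dotted line marks equal differences and circles mark the 2 probe sets at an adjusted p under 0.05 under salt; most points lie nearer to 0 on the vertical axis than on the horizontal one.

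**Figure D5:**
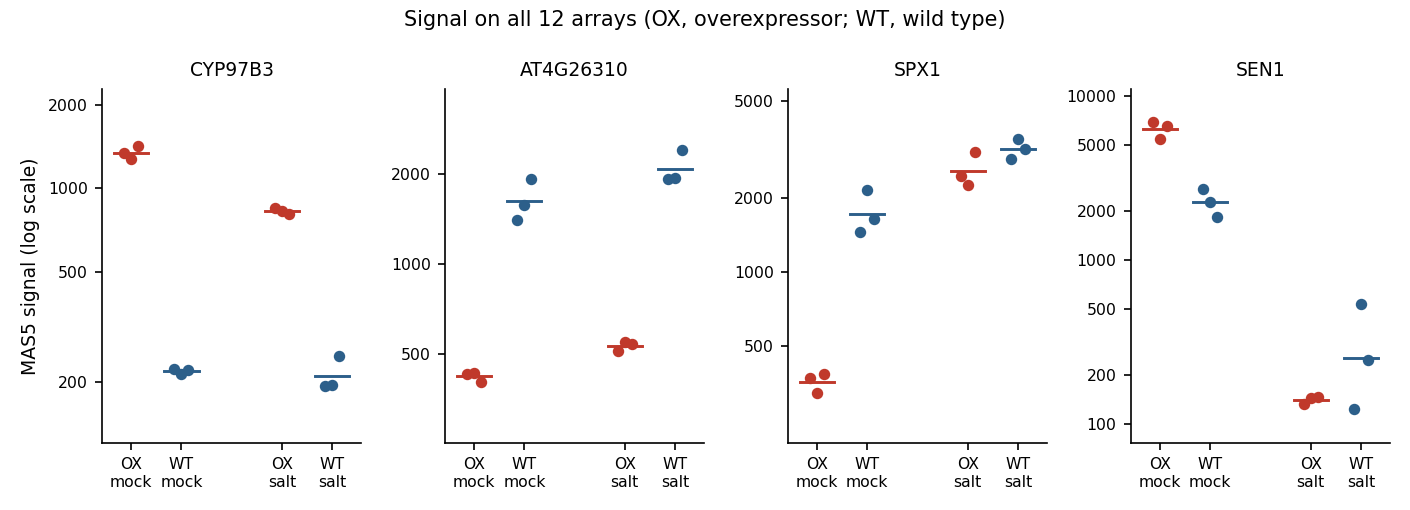
MAS5 signal (log scale) of *CYP97B3*, *AT4G26310*, *SPX1* and *SEN1* on all 12 arrays, with overexpressor (OX) arrays in red, wild-type (WT) arrays in blue and bars at the geometric mean of 3 arrays. The genotypes stay apart under mock and salt in *CYP97B3* and *AT4G26310*, whereas in *SPX1* and *SEN1* they are apart under mock and nearer or overlapping under salt.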

How the data were processed

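Whole seedlings were profiled on Affymetrix ATH1 arrays, 12 in all, of which the 6 mock arrays carry the comparison of 3 overexpressor with 3 wild-type samples; groups came from the sample labels. The deposited values are MAS5 intensity signals on a linear scale, which the authors scaled to a common trimmed mean, and the table held 22810 probe sets, of which 64 control probe sets were left out. The software named by the submitters' processing notes was MAS5, and the annotation build is not given in the sources used here. Every value was above 0, no floor was set, and limma 3.58.1 under R 4.3.3 (lmFit, eBayes with an intensity trend) was run on the log2 signals with Benjamini-Hochberg adjustment over 22746 probe sets. The salt arrays were fitted apart from the mock arrays in the same way. The fit recovered known changes in simulated data. Their noise followed the intensity trend exactly, and changes were placed only in probe sets above the median signal. The simulation therefore cannot show whether the calls hold without that trend.

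Probe sets were paired with genes through GEO's platform annotation, updated with RefSeq (13512 probe sets), and otherwise through the paper's gene tables, of which only the names were used (698 probe sets). A further 557 had several genes and 7978 had none. The number of arrays limits the precision. Values near the 20th percentile of an array give fold changes of uncertain size, and probe sets of near-identical genes can share signal.

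The genes named were the 20 highest and 30 lowest called with a signal above the median in the brighter group, in each list up to 6 members by smallest adjusted p, the genes the study measured by RT-PCR or named for this comparison, and the SnRK2 family; other list members and list-free genes were named after their values were seen. Members and lists were chosen with earlier results of these data known, so their counts are descriptions. Same-numbered replicates did not deviate together (r of -0.09, 0.02 and 0.02), so no block was fitted in the values reported, and p-values measure the spread between these samples. Tried as alternatives were a fit over all 12 arrays, no intensity trend, array weights, median centring, quantile normalization, signals raised to the 20th percentile, a filter at the 40th percentile, the replicate block, fits without each array in turn and the methods' t-test. Counts over probe sets paired through the annotation alone and the starch and mitochondrial lists were added after seeing the data. Promoter, protein and genome sequence were not used here.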

Additional observations from a re-analysis of the deposited data

Results flagged for a closer look

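Of 204 named or called genes examined, 11 lay on one side of the wild-type on every overexpressor array under mock treatment and on the other side on every array under salt. Many of the 204 were chosen for their mock differences. Over all probe sets this pattern was not counted, so 11 cannot be called unusual. Under mock alone 10.5% of all probe sets lay above and 9.72% below every wild-type array. The difference between the treatments was not tested, and values are log2 differences, overexpressor minus wild-type. Genes of pigment synthesis were among the 11: *DFR* had -1.67 under mock and 0.55 under salt, and *GSTF12* had -1.86 under mock and 0.84 under salt. The cold-regulated gene *COR15B* had -0.71 under mock and 1.09 under salt. Of the genes measured by quantitative RT-PCR, *AT4G18280* had -0.25 under mock and 2.23 under salt and *AT4G33550* had -0.67 under mock and 1.81 under salt. *CORI3*, a gene induced by coronatine and jasmonate, had -1.40 under mock and 0.35 under salt, and *AT4G17470*, which is on none of the lists, had -1.99 under mock and 0.57 under salt. The brassinosteroid oxidase gene *BR6OX2* had -0.52 under mock and 0.51 under salt, and the reference gene *AT4G34270* had -0.27 under mock and 0.46 under salt. In the other direction, the cytokinin response regulator gene *ARR15* had 0.60 under mock and -0.92 under salt, and *MCCA*, of leucine breakdown, had 1.02 under mock and -0.43 under salt. Under mock treatment limma gave *AT4G17470*, *DFR*, *GSTF12* and *MCCA* an adjusted p under 0.05, and under salt none of the 11. Outlying arrays were not examined, because every group had 3.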

How the results depend on the processing

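Counts of calls moved with the processing. Directions did not reverse among the genes past the test. Those genes were picked for their differences on these same arrays, so this cannot show how stable direction is. Of 117 named, listed or called genes at an adjusted p under 0.05, 55 stayed there without each single array. Of these 55, 41 also stayed there in every limma setting with all mock arrays except that without the intensity trend. In that one too, 3 stayed there. Of the 117, 0 changed sign in any setting. The main counts were 27 probe sets higher and 86 lower, and 18 list members higher and 43 lower. A fit over all 12 arrays called 14 probe sets higher and 67 lower, with 76 shared (67.3% of the 113 and 93.8% of its own 81), and 10 list members higher and 26 lower. Without the intensity trend the counts were 2 and 3 for probe sets and 1 and 0 for list members. The methods' t-test with a 2-fold limit for probe sets gave 94 and 180 at an unadjusted p under 0.05, where limma gave 195 and 369, and 0 and 0 after Benjamini-Hochberg, with 0 and 0 list members. With no fold limit limma called 146 higher and 219 lower, and with an adjusted p under 0.01 it called 9 and 43. Counted only over probe sets paired through the annotation, 12 were higher and 39 lower, and 10 and 12 list members. Leaving out a single mock array gave 9 to 42 probe sets higher and 55 to 86 lower, and 7 to 17 list members higher and 27 to 38 lower. Quantile normalization, median centring, array weights, the floor and the filter kept both probe set counts within a factor of 1.5, and the cause of the changes was not tested.

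The replicate number as a block gave 22 probe sets higher and 89 lower, and 18 list members higher and 40 lower. Same-numbered arrays did not deviate together, but with 3 arrays in each group this cannot settle whether they were grown or processed together. Under salt, 1 probe set called higher and 1 called lower under mock passed in the same direction, and 0 and 0 did with the replicate block. The fit over 12 arrays gave 3 and 6. Leaving out a single salt array gave 0 to 3 and 0 to 7 in the same direction and 0 to 2 in the opposite one, while 13 to 16 and 46 to 59 kept the same sign. Signal over background limits the rest: in 9 of the 113 calls the dimmer group lay under the 20th percentile.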

Other observations

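Some of the widest differences belonged to probe sets that were paired with no gene here. The most strongly higher of the 113 had 48.1, 46.1 and 59.1 in the overexpressor and 5.23, 2.43 and 7.12 in the wild-type (adjusted p = 0.019), and the most strongly lower had 2.98, 3.27 and 18.5 in the overexpressor and 93.3, 123 and 142 in the wild-type (log2 difference -4.38, adjusted p = 0.017). In both the dimmer group held signals near background, so the size of the difference is uncertain. Among the probe sets shared by several genes, the lower one with the widest difference had 441, 347 and 411 in the overexpressor and 1566, 1632 and 2106 in the wild-type (log2 difference -2.14, adjusted p = 1.2e-04), and another had 166, 194 and 178 in the overexpressor and 618, 621 and 634 in the wild-type (log2 difference -1.80, adjusted p = 1.1e-04), both with the groups far apart.

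Of 256 genes past an adjusted p under 0.05 that could be placed in gene order, 6 pairs were direct neighbors, of 6452 pairs of neighbors measured. In 5 of the 6 pairs both genes differed in the same direction. *UGT76C2* and *UGT76C1*, neighboring glycosyltransferase genes that act on cytokinins, had log2 differences of 0.60 (adjusted p = 0.024) and 0.76 (adjusted p = 0.039). *AT3G19850* and *bHLH121*, a transcription factor gene of iron homeostasis, had 0.52 (adjusted p = 0.049) and 0.41 (adjusted p = 0.048). The pair in opposite directions was *AT2G21640*, given with the mitochondrial list, and *MEE3*, at 0.77 (adjusted p = 0.049). Further pairs were the glutaredoxin genes *AT4G15690* and *AT4G15700* and the genes *DTX1* and *AT2G04050*. Close copies among neighbors can share probe signal, and no test was made of these pairs.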
